A study of Mus musculus with 6 samples.

Results

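RANKL, its receptor RANK, its soluble decoy OPG and 7 genes of the osteoclast were followed in the RNA of cells sorted from mouse bone marrow, 10 genes in all out of 25955 entries of the expression table. They were chosen by name (Tnfsf11, Tnfrsf11a, Tnfrsf11b, Nfatc1, Ctsk, Acp5, Oscar, Calcr, Ocstamp and Dcstamp), and each had a single entry. The marrow came from C57BL/6 mice and was dissociated with enzymes. Cells labelled TNCs, a term the labels do not spell out, were sorted into a CD44+CD51- and a CD51+ population, with 3 bulk libraries of each and no treatment given for either. CD51 is integrin alpha V, encoded by Itgav, and CD44 is a hyaluronan receptor. The labels give no age or sex, and they do not say whether replicates came from separate animals, so a p given here covers the spread among the sequenced libraries, which may be technical.

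Bone is resorbed by osteoclasts, large cells formed by fusion of precursors of the monocyte lineage. RANKL on osteoblast-lineage and marrow stromal cells binds RANK on the precursors, and with the growth factor M-CSF it turns on NFATc1, which drives the genes of fusion and resorption. OPG, secreted by stromal cells and osteoblasts among others, binds RANKL and keeps it from RANK, so the balance of the ligand and its decoy is commonly used as a measure of the drive to resorption.

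The population labelled CD51+ held RANKL and OPG transcripts that were nearly absent from CD44+CD51- cells, and it held cathepsin K transcript at a high level. Transcripts of the fusion proteins and of the calcitonin receptor were at or near 0 in both populations, and tartrate-resistant acid phosphatase, the classical osteoclast stain, was at about the same level in both. RPKM, a read count scaled for gene length and for library size, was the deposited unit. Values below are RPKM, means carry the SD with n = 3 per group, and changes are differences of log2(RPKM + 1), CD51+ minus CD44+CD51-, with their standard error and limma's adjusted p. The pseudocount of 1 makes changes of low genes smaller than the ratio of their means.

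Depth was not stated. Low RPKM values move in steps worth 1 read at a given gene length, which gives an estimate of it, and the divisor came to between 19292518 and 25585285 reads for CD44+CD51- and between 12194894 and 32487889 reads for CD51+. The labels were checked first. Itgav was at 0.564, 0.957 and 0.510 in CD44+CD51- and at 5.37, 9.81 and 5.86 in CD51+ libraries, while Cd44 was not called (log2 change -0.14, adjusted p = 0.401). Both products were used in the sort and are no finding. Ptprc, the pan-leukocyte gene CD45, was at 2.43, 4.73 and 2.60 in CD44+CD51- and at 6.69, 6.34 and 7.59 in CD51+ libraries, so that leukocyte RNA was present in both. CD44+CD51- replicate 2 stood apart from the other libraries of its group: the summed level of 9 osteoblast markers was 150 in it and 26.7 or 28.7 in the other libraries of the group. Where it moved a mean given below by over 1.5 times, the mean without it is given, or its share of the signal is stated.

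**Figure D1:**
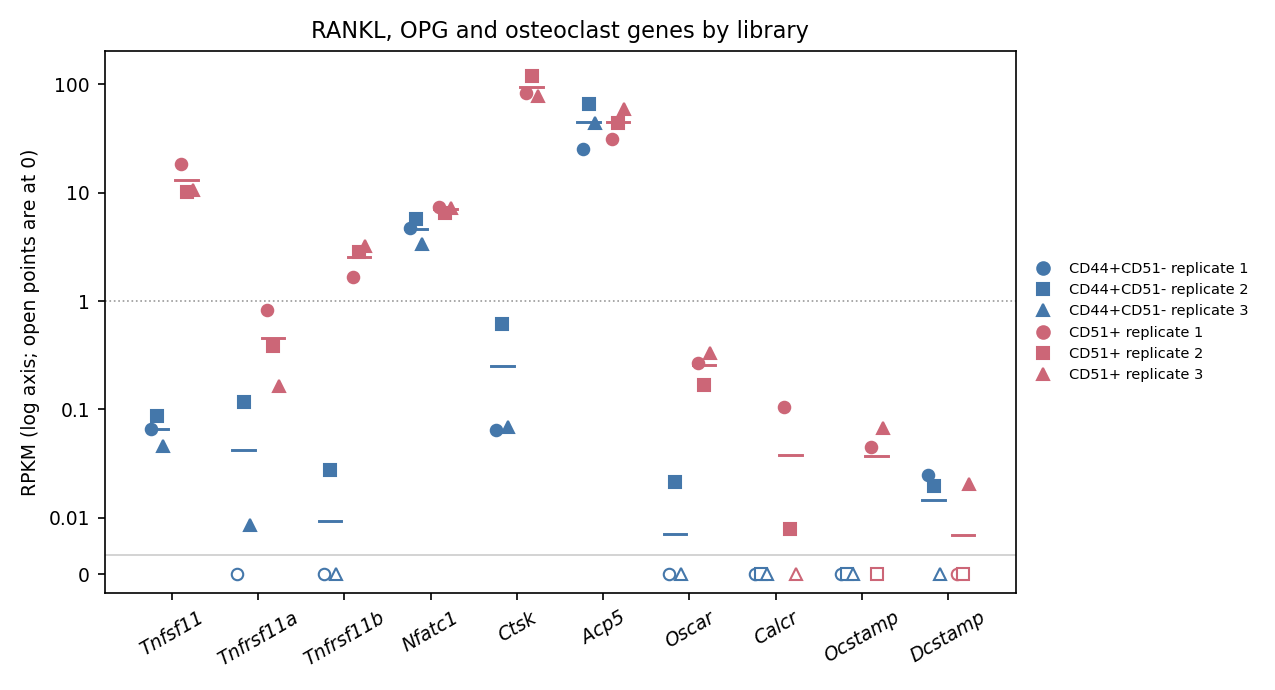
RPKM of the 10 genes in each of the 6 libraries on a log axis, with points by library, short bars for group means, open points for values of 0 and a dotted line at 1 RPKM. Tnfsf11, Tnfrsf11b and Ctsk lie far higher in CD51+, Acp5 overlaps between the groups, and Calcr, Ocstamp and Dcstamp stay at or below 0.105 in all libraries.

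Of the 10 genes, 5 had at least 1 RPKM in at least 3 libraries and entered the test, namely Tnfsf11, Tnfrsf11b, Nfatc1, Ctsk and Acp5. Of these, 4 were called higher in CD51+ and Acp5 was not called. Over all 11741 genes tested, 53.7% were called, 24.1% higher and 29.7% lower. Higher genes were 44.8% of all calls, and 34.6% of them under quantile normalization. Tnfsf11, Tnfrsf11b and Ctsk passed the filter through CD51+ libraries alone, so that these had to differ, and the count is no support for a shared change. With no filter on low values, 4 of the 10 were called higher, with Oscar in place of Nfatc1, against 18.5% of 21652 genes called higher and 33.9% called in either direction. In bulk RNA, fewer cells of a type and less RNA per cell cannot be told apart.

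The ligand came first. Tnfsf11 (chromosome 14, 78277445 to 78308043, minus strand, on GRCm38, the build of all positions given), which encodes RANKL, was at 0.0656, 0.0874 and 0.0463 in CD44+CD51- libraries and at 18.3, 10.2 and 10.7 in CD51+ libraries. The groups did not overlap, as was so in one direction or the other for 63.6% of all genes tested, and CD51+ replicate 1 was the highest library. Means were 0.0664 ± 0.0206 and 13.03 ± 4.57, and the log2 change was 3.67 ± 0.23 (adjusted p = 3.1e-05). The CD44+CD51- values rest on 10 reads in all and the CD51+ values on 1813. Reads per depth, pooled over libraries, were 172-fold higher in CD51+, with a 95% exact counting interval of 93.2 to 359. Such intervals cover counting error only, not the spread between libraries.

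The decoy was lower than the ligand in every library with reads of it. Tnfrsf11b (chromosome 15, 54250619 to 54278484, minus strand), which encodes OPG, was at 0, 0.0277 and 0 in CD44+CD51- libraries and at 1.66, 2.83 and 3.22 in CD51+ libraries. The groups did not overlap, and all of the CD44+CD51- signal was 2 reads of replicate 2. Means were 0.00925 ± 0.0160 and 2.57 ± 0.811, with a log2 change of 1.79 ± 0.19 (adjusted p = 0.000379). Pooled reads per depth gave a ratio of 253, with a counting interval of 69.8 to 2098. Both genes were called in all 13 alternative settings, but each passed the filter through CD51+ alone and had to differ wherever that filter was kept. With no filter, among these settings, adjusted p was 0.000247 for Tnfsf11 and 0.0012 for Tnfrsf11b.

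Ligand and decoy did not move together within CD51+. The ratio of RANKL to OPG RPKM was 11.03 in replicate 1, 3.59 in replicate 2 and 3.31 in replicate 3 (mean 5.98 ± 4.38). Replicate 1 had the highest RANKL and the lowest OPG of the 3, and it was also the shallowest CD51+ library, with 57 reads of OPG. Without it the mean ratio was 3.45. In CD44+CD51- cells the ratio had a value in replicate 2 alone, 3.15, from 5 reads of RANKL and 2 of OPG, and no difference in ratio between the populations can be read at this depth. Of the 8 marrow stromal markers, 4 were lowest in that library among the CD51+ libraries (Adipoq, Kitl, Lepr and Pdgfra) and 3 were highest (Ebf3, Foxc1 and Pdgfrb). Of the 9 osteoblast markers, 4 were lowest there (Col1a1, Phex, Runx2 and Sp7) and 3 were highest (Alpl, Bglap2 and Dmp1). Their part in the ratio was not tested.

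**Figure D2:**
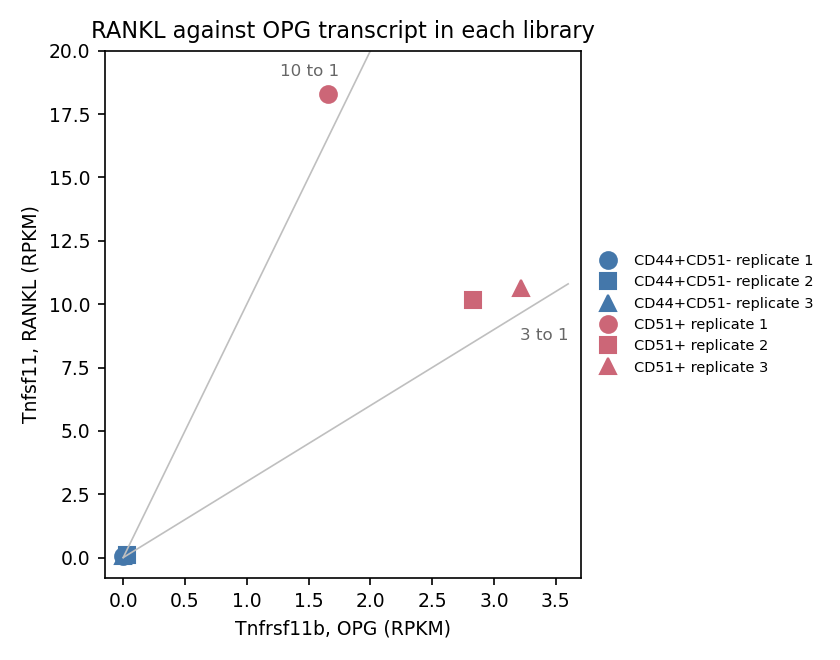
Tnfsf11 (RANKL) RPKM against Tnfrsf11b (OPG) RPKM in each library, both on linear axes, with grey lines at ratios of 3 to 1 and 10 to 1. CD51+ replicate 1 lies near the upper line at a ratio of 11.03, CD51+ replicates 2 and 3 lie near the lower line at 3.59 and 3.31, and the CD44+CD51- libraries lie close to the origin.

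The receptor was low in both populations. Tnfrsf11a (chromosome 1, 105780718 to 105847981, plus strand), which encodes RANK, was at 0, 0.118 and 0.00864 in CD44+CD51- libraries and at 0.822, 0.385 and 0.165 in CD51+ libraries. No library reached 1 RPKM, and the groups did not overlap. Of all genes tested, 63.6% did not overlap in one direction or the other, and no such share was taken below the filter. Pooled reads, 19 and 159, gave a ratio per depth of 7.93 (counting interval 4.91 to 13.5). Of the 19 reads, 18 came from CD44+CD51- replicate 2. The ratio of group means was 10.9 with that library and 106 without it, when the lower mean rests on 1 read and went from 0.0421 to 0.00432. RANK did not pass the filter. Without the filter its log2 change was 0.46 ± 0.16 (adjusted p = 0.0717), and with a pseudocount of 0.1 and no filter, a setting chosen after the values were seen, it was 1.88 ± 0.53 (adjusted p = 0.0335), in a fit that called 34.9% of all genes. In CD51+ libraries the order by level per length was RANKL above OPG above RANK in each of the 3.

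Nfatc1 (chromosome 18, 80606205 to 80713071, minus strand), the transcription factor that RANK signalling turns on and that lymphocytes also use, was at 4.68, 5.76 and 3.40 in CD44+CD51- libraries and at 7.43, 6.47 and 7.18 in CD51+ libraries. The groups were apart by a small margin, as they were with CD51+ higher in 26.1% of all genes tested. Means were 4.61 ± 1.18 and 7.03 ± 0.500, and the log2 change was 0.54 ± 0.19 (adjusted p = 0.0485). The call held in 3 of 13 alternative settings, namely TMM scaling, the replicate block (adjusted p = 0.0241) and without CD44+CD51- replicate 2, and was lost in the other 10, with adjusted p between 0.0230 and 0.155 over all of them. Reads of an antisense transcript that overlaps the gene would not be told apart where strand is not kept, as with the Nextera XT kit in its usual use.

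Cathepsin K and the acid phosphatase, both classed as osteoclast enzymes, parted company. Ctsk (chromosome 3, 95499256 to 95509362, plus strand) encodes cathepsin K, the protease that degrades collagen under the resorbing osteoclast, and in mice it also marks skeletal progenitors of the periosteum. It was at 0.0647, 0.620 and 0.0684 in CD44+CD51- libraries and at 83.2, 120.2 and 77.9 in CD51+ libraries, and the groups were far apart. Means were 0.251 ± 0.320 and 93.8 ± 23.0 (log2 change 6.25 ± 0.24, adjusted p = 5.9e-06). Of 28 reads in CD44+CD51- cells, 24 came from replicate 2, and without that library the mean of the group was 0.0665. The call held in all 13 alternative settings, but Ctsk passed the filter through CD51+ alone and had to differ wherever that filter was kept. With no filter, among these settings, its adjusted p was 4.8e-05.

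Acp5 (chromosome 9, 22126727 to 22135711, minus strand) encodes tartrate-resistant acid phosphatase, which osteoclasts and some macrophages make. It was at 25.2, 66.3 and 44.2 in CD44+CD51- libraries and at 31.5, 44.3 and 58.6 in CD51+ libraries. The groups overlapped fully, with means of 45.2 ± 20.6 and 44.8 ± 13.5. The log2 change was 0.05 ± 0.37 (adjusted p = 0.923), and its 95% interval of -0.84 to 0.93 leaves room for a change of up to 1.90-fold. In all, 6219 and 6579 reads lay behind these values, so that depth was not the limit. An uncharacterised transcript on the opposite strand spans the gene, and its reads could not be kept apart without strand. The ratio of Ctsk to Acp5 RPKM was 0.00257, 0.00935 and 0.00155 in CD44+CD51- libraries and 2.64, 2.71 and 1.33 in CD51+ libraries.

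The regions just before the starts of the ligand gene and of both enzymes are shown because Tnfsf11 and Ctsk were called higher in CD51+ and Acp5 was not called. They are the 250 bases before the RefSeq start on GRCm38.p6, 5′ to 3′ on the strand of the gene, at chr14:78308044-78308293 (minus), chr3:95498960-95499209 (plus) and chr9:22131866-22132115 (minus, the middle of 3 annotated starts). Capitals mark matches to the motifs searched.
Tnfsf11: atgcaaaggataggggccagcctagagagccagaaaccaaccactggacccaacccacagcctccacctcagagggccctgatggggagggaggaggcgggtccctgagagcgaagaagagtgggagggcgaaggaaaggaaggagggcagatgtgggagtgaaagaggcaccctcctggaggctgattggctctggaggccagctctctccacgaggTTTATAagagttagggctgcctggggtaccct
Ctsk: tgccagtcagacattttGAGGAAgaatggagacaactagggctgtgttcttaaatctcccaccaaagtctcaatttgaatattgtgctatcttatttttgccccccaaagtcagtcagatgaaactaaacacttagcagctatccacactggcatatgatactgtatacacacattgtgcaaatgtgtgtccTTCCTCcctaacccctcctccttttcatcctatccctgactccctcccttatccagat
Acp5: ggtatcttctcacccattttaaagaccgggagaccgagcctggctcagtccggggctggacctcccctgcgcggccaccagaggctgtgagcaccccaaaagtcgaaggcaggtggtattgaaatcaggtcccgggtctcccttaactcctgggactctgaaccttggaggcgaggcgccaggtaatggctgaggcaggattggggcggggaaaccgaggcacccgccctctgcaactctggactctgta
The motifs searched on both strands were those named for RUNX (TGTGGT), for AP-1 (TGANTCA), for MITF (CACATG), for the E-box (CACGTG), for PU.1 (GAGGAA) and for the TATA box (TATAAA). Ctsk held GAGGAA at 233 bases before the start and on the other strand at 58, a motif found in 23.3% of 32851 windows of this length. Tnfsf11 held TATAAA on the other strand at 32 bases before the start, against 12.4% of windows. Acp5 held none of the 6. TGTGGT stood in 14.0% of all windows, TGANTCA in 6.75%, CACATG in 12.3% and CACGTG in 6.02%. None of the searched motifs overlapped another in these windows, and a match describes letters only.

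The remaining osteoclast genes were close to the limit of detection. Oscar, an immunoglobulin-like receptor that costimulates osteoclast formation (chromosome 7, 3609813 to 3616157, minus strand), was at 0, 0.0212 and 0 in CD44+CD51- libraries and at 0.266, 0.167 and 0.335 in CD51+ libraries, from 1 read, in CD44+CD51- replicate 2, and 31 reads. The groups did not overlap, which was common among genes tested (63.6%), though Oscar was not one of them. Oscar did not pass the filter, and without the filter its log2 change was 0.32 ± 0.05 (adjusted p = 0.00669). The pooled ratio was 29.4, with a counting interval of 4.89 to 1197.

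Calcr, the calcitonin receptor of mature osteoclasts (chromosome 6, 3685680 to 3764714, minus strand), had no read in any CD44+CD51- library and stood at 0.105, 0.00786 and 0 in CD51+ libraries, 6 reads in all. Ocstamp (chromosome 2, 165393760 to 165400405, minus strand) and Dcstamp (chromosome 15, 39745930 to 39760938, plus strand) encode membrane proteins needed for precursor fusion. Ocstamp likewise had no read in CD44+CD51- cells and stood at 0.0448, 0 and 0.0676 in CD51+ libraries, 8 reads in all. Dcstamp was at 0.0245, 0.0196 and 0 in CD44+CD51- libraries and at 0, 0 and 0.0207 in CD51+ libraries, 1 read wherever it was seen. None of these 3 genes was called without the filter, with adjusted p of 0.406, 0.246 and 0.753 from limma, and none had an unadjusted p under 0.05. A count of 0 allows up to 3 reads, which for Calcr is between 0.02997 and 0.03975 RPKM in the CD44+CD51- libraries and for Ocstamp between 0.0321 and 0.0425. Calcr in CD51+ replicate 1 (5 reads) and Ocstamp in CD51+ replicates 1 and 3 (2 and 6 reads) lay above these ranges of the CD44+CD51- libraries. In CD51+ replicate 1, the shallowest library, 3 reads of Ocstamp would be 0.0673 RPKM, so its value lay below its own limit. On so few reads no difference was called, and a lack of one cannot be read at this depth.

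The pattern of RANKL and of cathepsin K was compared with that of all tested genes by Pearson's r of log2(RPKM + 1) over the 6 libraries, which mostly reflects the split into groups. The 5 genes most like Tnfsf11 were Bmp8a, a BMP ligand, Rai2, a retinoic acid-induced gene, Arhgef19, a guanine nucleotide exchange factor, Pdk4, a kinase that restrains pyruvate oxidation, and Cybrd1, a ferric reductase, with r from 0.9991 to 0.9997. Like RANKL, all 5 had their highest value in CD51+ replicate 1, which goes with their choice by likeness and is no separate finding. The 5 most like Ctsk were Creb3l1, a transcription factor of osteoblasts, Fstl1, a secreted glycoprotein, Prss35, Gstm2 and Cdo1, a cysteine dioxygenase, with r from 0.99985 to 0.99997. Creb3l1 was at 63.1, 88.2 and 62.1 in CD51+ libraries and, as with Ctsk, at its highest CD44+CD51- value, 0.781, in replicate 2. That too goes with its choice by likeness. Such likeness was common, with r above 0.99 for 238 genes against Tnfsf11 and for 672 against Ctsk.

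The markers of the cells that could carry these transcripts were set beside them. All 9 osteoblast markers and all 8 marrow stromal markers were tested and higher in CD51+, with summed RPKM of 26.7 to 150 against 25928 to 34769 and of 1.02 to 9.90 against 1754 to 2897. Of them, 3 osteoblast and 6 stromal markers were below 1 RPKM in every CD44+CD51- library, passed the filter through CD51+ alone and so had to be higher. Over all genes tested, for comparison with these and the following counts, 24.1% were higher and 29.7% lower. Of 12 monocyte and macrophage markers 11 were tested and 10 were higher, with sums of 638 to 1859 against 5188 to 8170. Most of each sum was Lyz2, at 580 to 1688 in CD44+CD51- and 4650 to 7654 in CD51+ libraries, so the sums largely follow that gene. Among the 10, Fcgr1 passed the filter through CD51+ alone and so had to be higher. Marco did not pass the filter and Cd163 was not called, and Vcam1 in that list is also a gene of marrow stroma. Neutrophil markers were higher for all 7, with sums of 5698 to 28218 against 84166 to 86932, and 4 of 5 pan-haematopoietic markers were higher. Of 10 osteoclast markers 5 were tested and 3 were higher, Ctsk, Mmp9 and Nfatc1, while Acp5 and Itgb3 were not called. Ctsk passed the filter through CD51+ alone, and the call of Nfatc1 held in 3 of 13 alternative settings. Calcr, Ocstamp, Dcstamp and Oscar stayed below 1 RPKM in every library. Atp6v0d2, the other untested marker, passed 1 RPKM in CD51+ replicate 3 alone (1.43). Of 8 B lineage markers 6 were tested and 5 were lower, and of 7 erythroid markers, all tested, 3 were higher and 4 lower. Only 2 of 7 T and NK markers were tested, both higher, and Cd4 of these passed the filter through CD51+ alone. Only 1 of 5 endothelial markers was tested and it was not called, so that both lists say little. The part of any of these cells in the values of the 10 genes was not tested.

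**Figure D3:**
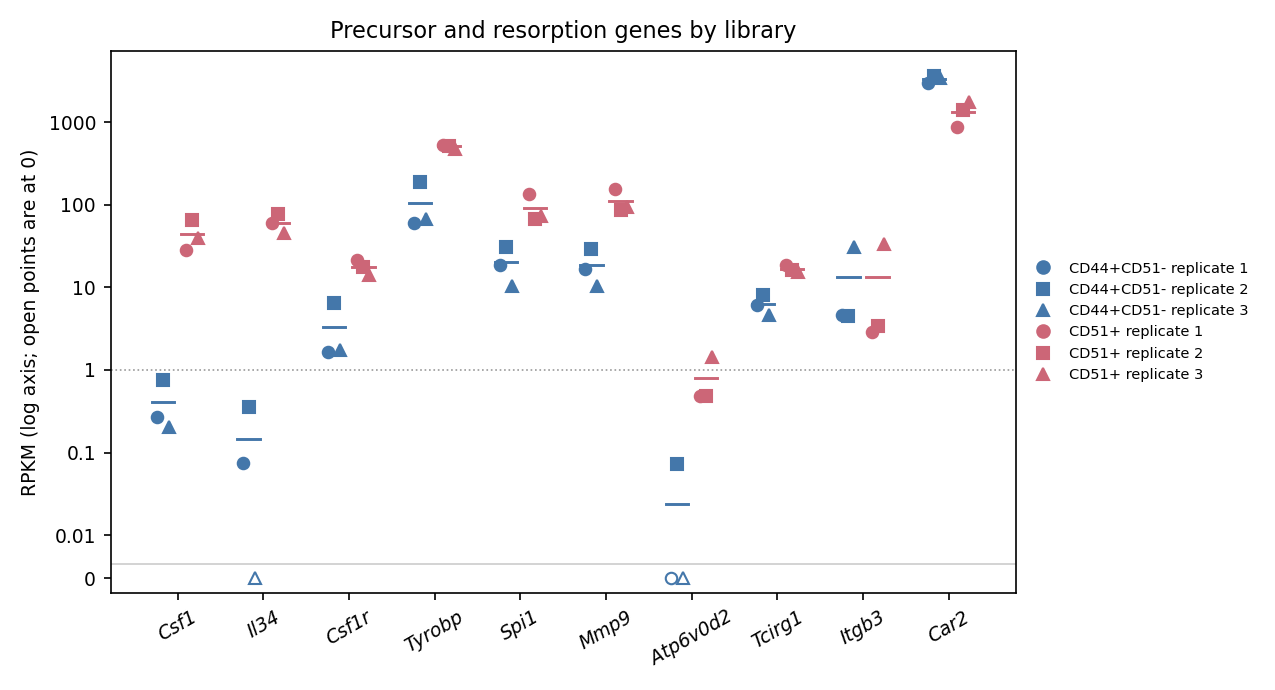
RPKM of 10 further genes of osteoclast precursors and of resorption in each library on a log axis, with points by library, bars for group means and open points for values of 0. Csf1 and Il34 rise from below 1 RPKM, Car2 is lower in CD51+, and Itgb3 is high in the libraries numbered 3 of both groups, at 30.8 and 33.9.

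The transcript of the second signal that osteoclast precursors need was also higher in CD51+. Csf1, which encodes M-CSF, was at 0.269, 0.762 and 0.206 in CD44+CD51- libraries and at 28.1, 65.3 and 39.8 in CD51+ libraries (log2 change 4.94, adjusted p = 3.6e-05). Il34, the other ligand of the M-CSF receptor, rose from 0.145 ± 0.189 to 60.6 ± 15.7 (log2 change 5.73, adjusted p = 6.0e-06). The groups of both ligands did not overlap, but both passed the filter through CD51+ alone and had to differ. With no filter, limma's adjusted p was 0.00023 for Csf1 and 4.9e-05 for Il34. Within CD51+, Csf1 was lowest in replicate 1, where Tnfsf11 was highest. Their receptor gene Csf1r, a marker of monocytes and macrophages, rose from 3.29 ± 2.76 to 17.8 ± 3.79 (adjusted p = 0.00359), with 6.47 of the lower group in replicate 2. Without that library the lower means were 0.0374 for Il34, 0.237 for Csf1 and 1.70 for Csf1r.

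Of 16 genes of that receptor pathway and of costimulation through ITAM adaptors, 15 were tested, 13 were higher and 1 was lower, against 24.1% higher and 29.7% lower of all genes tested, with a median log2 change of 2.21 against -0.23. Csf1, Il34 and Trem2 passed the filter through CD51+ alone and had to be higher, and of the other 12 tested 10 were higher and 1 lower. Tyrobp, the adaptor DAP12, rose from 105 ± 72.3 to 508 ± 26.7, and Spi1, which encodes PU.1, from 20.01 ± 10.5 to 92.5 ± 38.4. Without CD44+CD51- replicate 2 the lower mean of Tyrobp was 63.5 and that of Trem2 0.127. Trem2, a DAP12-coupled receptor, rose from 0.206 ± 0.137 to 1.04 ± 0.0328 (adjusted p = 0.00266), although under quantile normalization its direction turned (log2 change -0.19, adjusted p = 0.157). The member that fell was Btk, a kinase of B cells and osteoclasts, with a log2 change of -0.92 (adjusted p = 0.00367). The monocyte, macrophage, neutrophil, osteoblast and stromal sums given above moved the same way as this list. The part of any of these cells in it was not tested.

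Among genes that relay the RANK signal, 22 of 24 were tested, with 6 higher and 4 lower and a median log2 change of -0.28. The share higher was near the 24.1% of all genes tested and the share lower was below their 29.7%, so the counts do not set the list apart. Src and Fosl2 passed the filter through CD51+ alone. The replicate block gave 7 higher and 10 lower relays, in a fit that called 69.2% of all genes, 27.8% higher and 41.3% lower. Traf6, the adaptor that RANK recruits, was at 8.33, 9.26 and 9.83 in CD44+CD51- libraries and at 4.01, 6.26 and 5.44 in CD51+ libraries (log2 change -0.72, adjusted p = 0.0138), though leaving out CD44+CD51- replicate 3 ended the call (p adjusted 0.0551). For Nfkb1, an NF-kB subunit gene, the log2 change was -0.72 (adjusted p = 0.00916). Fos, a partner of NFATc1 and an immediate early gene, rose from 18.9 ± 12.3 to 115 ± 18.6 (adjusted p = 0.00152), and its lower mean was 11.8 without CD44+CD51- replicate 2. Nfkb2, of the alternative NF-kB pathway, rose from 4.12 ± 1.06 to 9.21 ± 4.18 (adjusted p = 0.0410), a call lost in 7 of 13 alternatives. Mitf, a regulator of osteoclast enzyme genes, was at most 0.347 RPKM in every library and was not tested.

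Among 14 genes that restrain osteoclast formation, all tested, 7 were higher and 0 lower by limma, with 1 lower at an unadjusted p under 0.05 and a median log2 change of 0.78, against 24.1% higher and 29.7% lower of all genes tested. Bcl6 and Lgr4 passed the filter through CD51+ alone, and of the other 12 5 were higher. Irf8, a brake that monocytes express, rose from 6.37 ± 4.51 to 20.7 ± 2.13 (adjusted p = 0.00873), with a lower mean of 3.78 without CD44+CD51- replicate 2. Lgr4, described in mice as a second receptor of RANKL that limits its signal, rose from 0.584 ± 0.200 to 5.14 ± 1.20 (log2 change 1.94, adjusted p = 0.000245). Lgr4 was above RANK in every library of both populations, so that this order does not set CD51+ apart.

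The machinery of resorption was mixed. Of 17 genes, 15 were tested, 9 were higher and 1 was lower, against 24.1% and 29.7% of all genes tested, with a median log2 change of 0.80. Itgav, used in the sort, is among the 9, and it alone passed the filter through CD51+ alone. Atp6v0d2, the proton pump subunit typical of osteoclasts, was at 0, 0.0719 and 0 in CD44+CD51- libraries and at 0.483, 0.487 and 1.43 in CD51+ libraries, and it did not pass the filter. It was called in all 3 alternative fits with a lower filter or none, with limma's adjusted p from 0.00522 to 0.0264. With no filter, 18.5% of all genes were called higher. Tcirg1, another pump subunit that osteoclasts need, rose from 6.24 ± 1.70 to 16.7 ± 1.67 (adjusted p = 0.00188). Clcn7 and Ostm1, which encode a chloride transporter and its partner, were not called (adjusted p of 0.947 and 0.583). Cd68, a lysosomal protein of macrophages and osteoclasts, rose by 3.21 on the log2(RPKM + 1) scale (adjusted p = 0.00342), and by a ratio of means of 8.18 against 8.68 for the protease gene Ctsl. Its lower mean of 5.92 was 2.45 without CD44+CD51- replicate 2.

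Mmp9, a gelatinase of osteoclasts and of neutrophils, rose from 18.8 ± 9.62 to 112 ± 37.0 (adjusted p = 0.00168), while the 7 neutrophil markers were higher as well. The part of neutrophils in the Mmp9 values was not tested. Itgb3, the partner of alpha V in the osteoclast vitronectin receptor and a gene of megakaryocytes, was at 4.62, 4.54 and 30.8 in CD44+CD51- libraries and at 2.90, 3.38 and 33.9 in CD51+ libraries. The high values stood in the libraries numbered 3 of both groups, and the groups overlapped (adjusted p = 0.851). Car2, the carbonic anhydrase of osteoclasts and of red cell precursors, was the gene that fell, from 3346 ± 338 to 1333 ± 444 (log2 change -1.38, adjusted p = 0.0127). This call ended with no filter (adjusted p = 0.0526) and when CD44+CD51- replicate 3 was left out (adjusted p = 0.0501).

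Genes through which stromal cells control RANKL and OPG were higher for 13 and lower for 0 of 17 tested, out of 25, with 1 lower at an unadjusted p under 0.05 by limma and a median log2 change of 2.12. Over all genes tested 24.1% were higher and 29.7% lower. Of the 13, 12 were below 1 RPKM in every CD44+CD51- library and passed the filter through CD51+ alone, so that they had to be higher and the count is a description. Of the other 5 tested, 1 was higher, Il11ra1, a chain of the interleukin 11 receptor. Pth1r, the parathyroid hormone receptor, rose from 0.167 ± 0.162 to 137 ± 22.1 (log2 change 6.88, adjusted p = 3.7e-06, with a lower mean of 0.0762 without CD44+CD51- replicate 2), and Vdr, the vitamin D receptor, from 0.231 ± 0.0676 to 14.7 ± 3.03 (adjusted p = 1.1e-05). Il6st, the gp130 chain of cytokine receptors, rose by 3.17 on the log2 scale. Wnt5a, a Wnt ligand that raises RANK in precursors, had a value of 0 throughout CD44+CD51- cells and stood at 0.377, 0.853 and 0.769 in CD51+ libraries, and Sema3a, a semaphorin that restrains osteoclasts, was at 0.166, 0.490 and 0.327 in CD51+ libraries. Neither passed the filter. Both were called in all 3 alternative fits with a lower filter or none, with limma's adjusted p of at most 0.0050 for Wnt5a and 0.0162 for Sema3a.

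Of 12 other ligands and receptors of the TNF family, 8 were tested, 5 were higher and 1 was lower, against 24.1% and 29.7% of all genes tested, with a median log2 change of 1.36. Tnfsf13b passed the filter through CD51+ alone and Tnfsf10 through CD44+CD51- alone. Tnfrsf1a, a TNF receptor, rose from 8.80 ± 4.76 to 86.4 ± 8.47 (adjusted p = 0.000241). Tnfsf10 encodes TRAIL, the other ligand that OPG binds. It was at 1.76, 2.23 and 1.81 in CD44+CD51- libraries and at 0.778, 0.549 and 0.712 in CD51+ libraries, with no overlap (log2 change -0.80, adjusted p = 0.00271). As it passed the filter only through the group where it was higher, it had to differ there, and with no filter it was called lower as well (adjusted p = 0.00725).

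**Figure D4:**
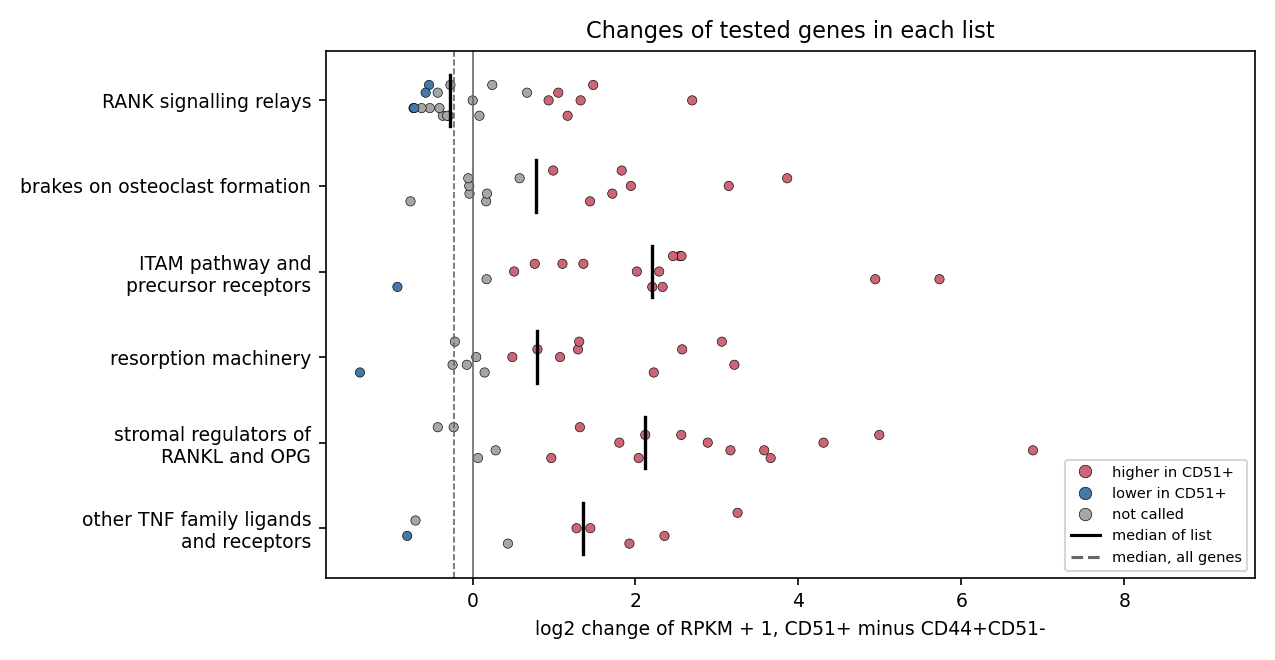
Log2 change of each tested gene in 6 lists around the RANKL pathway, 1 point per gene with calls in colour, the median of each list as a black bar and the median of all genes as a dashed line at -0.23. The relays lie around the dashed line with a median of -0.28, and the ITAM and stromal lists have medians of 2.21 and 2.12.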

How the data were processed

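The deposited table gave 1 RPKM column per library, which the authors computed, per the file headers. Per the submitters' processing notes, the authors used edgeR 3.16.5 and the build GRCm38. Aligner, read counter and annotation are not given in the sources used here. Genes with at least 1 RPKM in at least 3 of 6 libraries were tested as log2(RPKM + 1) with limma-trend (limma 3.58.1, R 4.3.3). Its p-values were two-sided and adjusted by Benjamini and Hochberg's method over 11741 genes, with a threshold of 0.05. The fit was run on simulated data with independent libraries and no outlying one, so that run does not cover the spread seen in these libraries.

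The 10 genes, the lists and the rule for named genes (all 10, a fixed set of list genes, the largest called change in each direction of each list, and the 5 genes most like Tnfsf11 and Ctsk) were chosen with earlier results of these data known. 1 gene that the rule names is not reported here. Of 118 genes in the lists, the 10 included, 116 had an entry. Alternatives changed the pseudocount, filter, scaling, replicate block and libraries.

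Gene lengths and coordinates came from GENCODE M21 on GRCm38. With them, 89.9% of 32338 values of up to 20 reads were whole within 0.05 read, and reads given are these estimates. The authors' exact lengths are not known. The design states no pairing, and the reported p-values come from a fit without it. Only the replicate block paired libraries by number. Deviations from group means correlated between same-numbered libraries (r = 0.62, 0.29 and 0.52). They also did so for CD44+CD51- replicate 3 with CD51+ replicate 2 (r = 0.32). For CD44+CD51- replicate 2 with CD51+ replicate 3 r was 0.20, and the remaining differently numbered pairs had negative r. Promoter windows came from RefSeq (GRCm38.p6), which held 6 of the 10 genes.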

Additional observations from a re-analysis of the deposited data

How the results depend on the processing

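Under other settings, 25 results on the 10 genes, the lists and the RANKL to OPG ratio took 258 values. Of these, 234 kept their direction and side of the threshold or stayed within the allowed range. The count is a description only, as Tnfsf11, Tnfrsf11b and Ctsk had to differ wherever the filter was kept. Leaving out 1 of 3 libraries cannot move a mean by the SD of the 3, here 4.38. A range that wide is therefore no test of the ratio. The mean ratio was 5.98 with all 3 CD51+ libraries, 3.45 without replicate 1, 7.17 without replicate 2 and 7.31 without replicate 3. Nfatc1 lost its call at a pseudocount of 0.1 (log2 change 0.63, or 0.63 with no filter as well), with no filter or a filter of 0.1 RPKM (0.54 each) and under quantile normalization (0.34), and it ran from 0.37 to 0.68 without single libraries. Acp5 ran from -0.31 to 0.37 without single libraries, turning sign without CD44+CD51- replicate 1 (-0.31) or CD51+ replicate 3 (-0.17). Tnfrsf11a was called with a pseudocount of 0.1 and no filter (1.88), a setting added after the data were seen. With the replicate block, counts of lower genes were 10 for relays, 1 for brakes, 1 for stromal regulators and 2 for other TNF family genes. Under quantile normalization they were 1 for brakes, 1 for stromal regulators and 2 for other TNF family genes. With no filter the count of lower resorption genes was 0. Without single libraries, lower genes ran from 0 to 1 for brakes, 0 to 1 for resorption and 1 to 2 for other TNF family genes, and the RANKL to OPG ratio from 3.45 to 7.31. The block changed no call of the 5 tested genes, and it was not run for the 5 below the filter.

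Of the named list genes, direction turned for Trem2 (-0.19) and Cd44 (0.0090) under quantile normalization and, without single libraries, for Clcn7 (-0.34 to 0.59), Ostm1 (-0.44 to 0.08) and Itgb3 (-1.27 to 0.59). For Clcn7 the values were -0.19, -0.26 and -0.34, for Ostm1 0.083, and for Itgb3 0.59, 0.31 and 0.23. The cause was not tested. Calls over all genes were 44.8% higher as reported, 34.6% under quantile normalization and 52.0% under TMM scaling, and the median log2 change over every gene tested shifted by -0.13 and 0.11. Depth limits Calcr, Ocstamp, Dcstamp, Oscar and RANK, each seen in 0 to 75 reads per library.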
